A study of Caenorhabditis elegans with 2 samples.

Results

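The 10 genes *let-23*, *sem-5*, *sos-1*, *let-60*, *gap-1*, *gap-2*, *gap-3*, *lin-45*, *mek-2* and *mpk-1* of the Ras pathway were examined for binding of ETS-7 in early embryos of *Caenorhabditis elegans*, out of 19985 annotated protein-coding genes. They were selected from earlier results of these data: the region upstream of *gap-3* had one of the highest nuclear signals, and the other 9 genes were taken because they act in the same pathway. All 10 symbols matched 1 protein-coding gene each. A region was placed at a gene when its summit, the position of highest signal, lay from 2000 bp upstream of the annotated 5' end to the 3' end. By this rule the 10 genes held 33 of the 11626 regions called on the pooled replicates and 1 of the 595 regions of the authors' optimal list.

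ETS-7 belongs to the ETS family of transcription factors. Its binding was measured by ChIP-seq, which sequences the DNA that an antibody pulls down together with a protein fixed to it. The only group was whole early embryos of the hermaphrodite strain OP487, collected 3 hours after synchronization by egg bleaching. The strain stably expresses ETS-7 with green fluorescent protein (GFP) and FLAG at its C-terminus, and an antibody against GFP was used. The group had 2 biological replicates, numbered 3 and 4. The replicates thus come from 1 transgenic line and from a mixture of all embryonic cells, and embryos without the tagged protein were not analysed here. The replicate lists held 16227 and 15533 regions. Read counts are not part of these lists. The depth is therefore unknown, and the only error that can be given is the spread between the replicates.

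Ras signalling carries a growth factor signal from the cell surface to the nucleus. In *C. elegans* the ligand LIN-3 activates the receptor LET-23, the adaptor SEM-5 recruits the exchange factor SOS-1, and SOS-1 loads the small GTPase LET-60, the worm Ras, with GTP. GTPase-activating proteins return Ras to its GDP-bound form. Active LET-60 starts the kinase cascade of LIN-45, MEK-2 and MPK-1. The pathway is best known for induction of the vulva in larvae, and one of the nuclear targets of MPK-1, LIN-1, is itself an ETS-domain protein.

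Among the 33 regions, 1 stood far above the others. The *gap-3* region had a pooled signal of 474, whereas the other 32 regions ran from 27.8 to 76.6, below the lowest signal of the optimal list, 80.7. The *gap-3* region was 6.19-fold above the strongest region of any other member and made up 26.1% of the summed pooled signal at the 10 genes. The median of the 33 regions was 35.5, close to the 34.8 of the 9780 regions at all protein-coding genes. The members just outside the optimal list were *sos-1* at 76.6 and *sem-5* at 73.3. The pooled signal is close to the sum of the replicates' signals (median ratio 0.98 over pooled regions found in both), so it is not their mean.

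**Figure D1:**
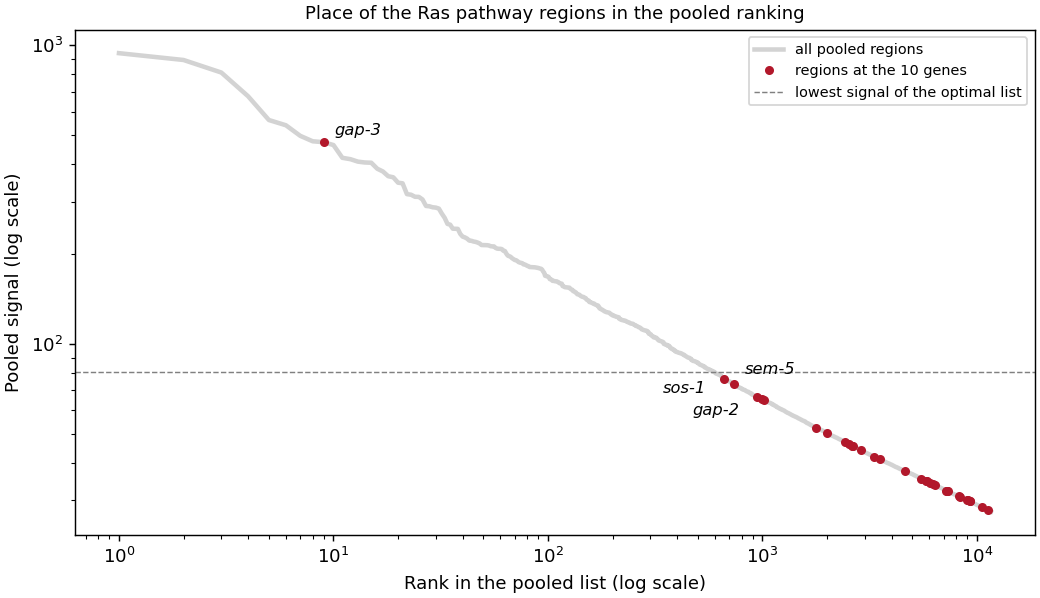
Pooled signal against rank in the pooled list, both on log axes, for all 11626 pooled regions (grey line) and the 33 regions at the 10 genes (red points), with the lowest signal of the optimal list as a dashed line. The *gap-3* region stands at rank 9 and the other 32 lie below the dashed line, from rank 661 of *sos-1* downwards.

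At least 1 pooled region was found at 9 of the 10 genes, beside 40.0% of all 19985 protein-coding genes with the same window. Replicate 3 listed a region at all 10, beside 50.2% of all genes, and replicate 4 at 9, beside 48.8%. Overlapping regions of both replicates were found at 9 members, beside 27.2% of all genes. *gap-3* was chosen for its region, so its place in these counts, and in those by window length, was fixed in advance. Of the other 9 genes, all but *gap-1* held a pooled region and overlapping regions of both replicates. Longer windows hold more regions, so the count depends on gene length. Among genes with windows under 5 kb, 2 of the 3 members (*sem-5* and *let-60*, not *gap-1*) held a pooled region, beside 31.5% of all such genes. The 4 members with windows of 5 to 15 kb all held one, beside 55.5%, as did the 3 members with windows over 15 kb, beside 84.4%. An optimal region was found at 1 member, beside 3.42% of all genes, but *gap-3* was chosen for it and nothing can be read from that count. By window length, 0 of 3 members under 5 kb had one, beside 2.44%, 0 of 4 of 5 to 15 kb, beside 4.93%, and 1 of 3 over 15 kb, beside 11.1%. Taken per length, the members' windows held 2.04 pooled regions per 10 kb, against 1.20 over all protein-coding genes. At genes with windows over 15 kb there were 1.33 per 10 kb. Of the 33 regions, 22 lay at *sos-1* and *gap-2*.

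**Figure D2:**
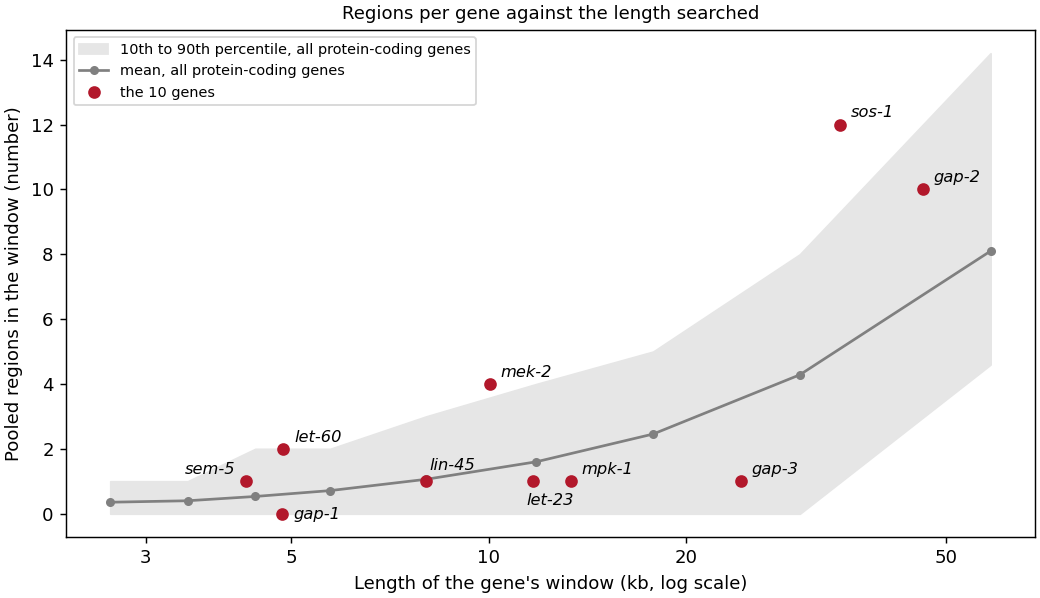
Number of pooled regions against the length of the window (log axis) for the 10 genes (red points) and for all protein-coding genes in classes of length (grey line, mean; grey band, 10th to 90th percentile). With 12 regions *sos-1* lies above the band, while *gap-3*, with 1 region, lies below the mean of genes of like length. *gap-2*, with 10, lies above the mean but inside the band as drawn between classes. The 90th percentile of its own class, 25 to 50 kb, is 8.

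The receptor gene *let-23*, which encodes the worm epidermal growth factor receptor, held 1 region of about median signal. Its summit lay 321 bp after the 5' end, in an intron, at II:9197593-9198072. The pooled signal was 34.4, with 20.1 in replicate 3 and 13.5 in replicate 4. This is close to the median of all pooled regions, 34.9, and 24.9% of protein-coding genes held a pooled region at least as strong in their window.

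The adaptor gene *sem-5*, the worm GRB2, had its pooled region upstream, at X:7962047-7962526, with the summit 564 bp before the 5' end. The signal was 33.7 in replicate 3, 38.6 in replicate 4 and 73.3 in the pooled list, where it ranked 736. The summits of the replicates were 4 bp apart, compared with a median of 70 bp over all pooled regions found in both replicates. The median was 25 bp over the optimal regions and 22.5 bp over the member regions found in both. No other protein-coding gene had this summit in its window, and 4.10% of protein-coding genes held a pooled region as strong. Replicate 3 listed 2 further regions. One, 331 bp upstream with a signal of 29.9, overlapped the region of replicate 4, and the other, in the 3' UTR with a signal of 16.3, did not.

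The sequence around the *sem-5* summit is shown because both replicates placed the summit nearly alike and the 50 bp to each side lack the core letters of an ETS site. ETS domains bind sequences around GGAA. None was found within 50 bp of the summit on either strand, whereas 65.7% of all pooled regions held it there. The sequence is from the forward strand of the RefSeq genome (WBcel235, the assembly of ce11), X:7962237-7962337, opposite to the strand of the gene. A missing match says only that these letters are not in the window.
sem-5 summit: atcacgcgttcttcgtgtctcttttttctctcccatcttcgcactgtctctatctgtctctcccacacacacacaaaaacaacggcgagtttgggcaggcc

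The exchange factor gene *sos-1* held the most regions of the 10, with 12 in a window of 34.3 kb, or 3.49 per 10 kb. Among the 130 protein-coding genes with windows of 25 to 50 kb, the mean was 4.28 regions, and 6 genes, *sos-1* included, held 12 or more. Of the 12 regions, 11 lay in introns and 1 lay upstream. They were unevenly spread, and 8 of the 11 lay in 1 intron of 13.6 kb, V:4522592-4536191, which is 5.88 per 10 kb. The intron also holds the noncoding gene *T28F12.4*. For the 8 regions nearest to the 3' end of *sos-1*, the closest protein-coding 5' end belonged to *T28F12.1*, at 7160 to 13891 bp.

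The widest gap between the replicates, among the 18 member regions found in both, was at *sos-1*. Its strongest region, V:4523809-4524288, had a signal of 21.7 in replicate 3 and 55.0 in replicate 4, with a pooled signal of 76.6. Replicate 4 was thus 2.53-fold higher there, beyond the 1.51-fold spread (1 SD of the log2 ratio) of the 650 pooled regions of signal 60 to 80 found in both replicates. The upstream region, V:4550328-4550807, with its summit 1277 bp before the 5' end, had a signal of 43.3 in replicate 4 and overlapped no region of replicate 3. The intronic region V:4525314-4525793 was the reverse, with 31.4 in replicate 3 and none in replicate 4. Of the 12 pooled regions, 3 overlapped a region of both replicates, beside 6764 of all 11626 pooled regions. Of these 3, 2 neighbours were matched to the same region of each replicate. When the list of replicate 4 was limited to its top 595 regions, as many as the optimal list holds, 2 *sos-1* regions were in it, at ranks 301 and 554. The top 595 of replicate 3 held none.

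**Figure D3:**
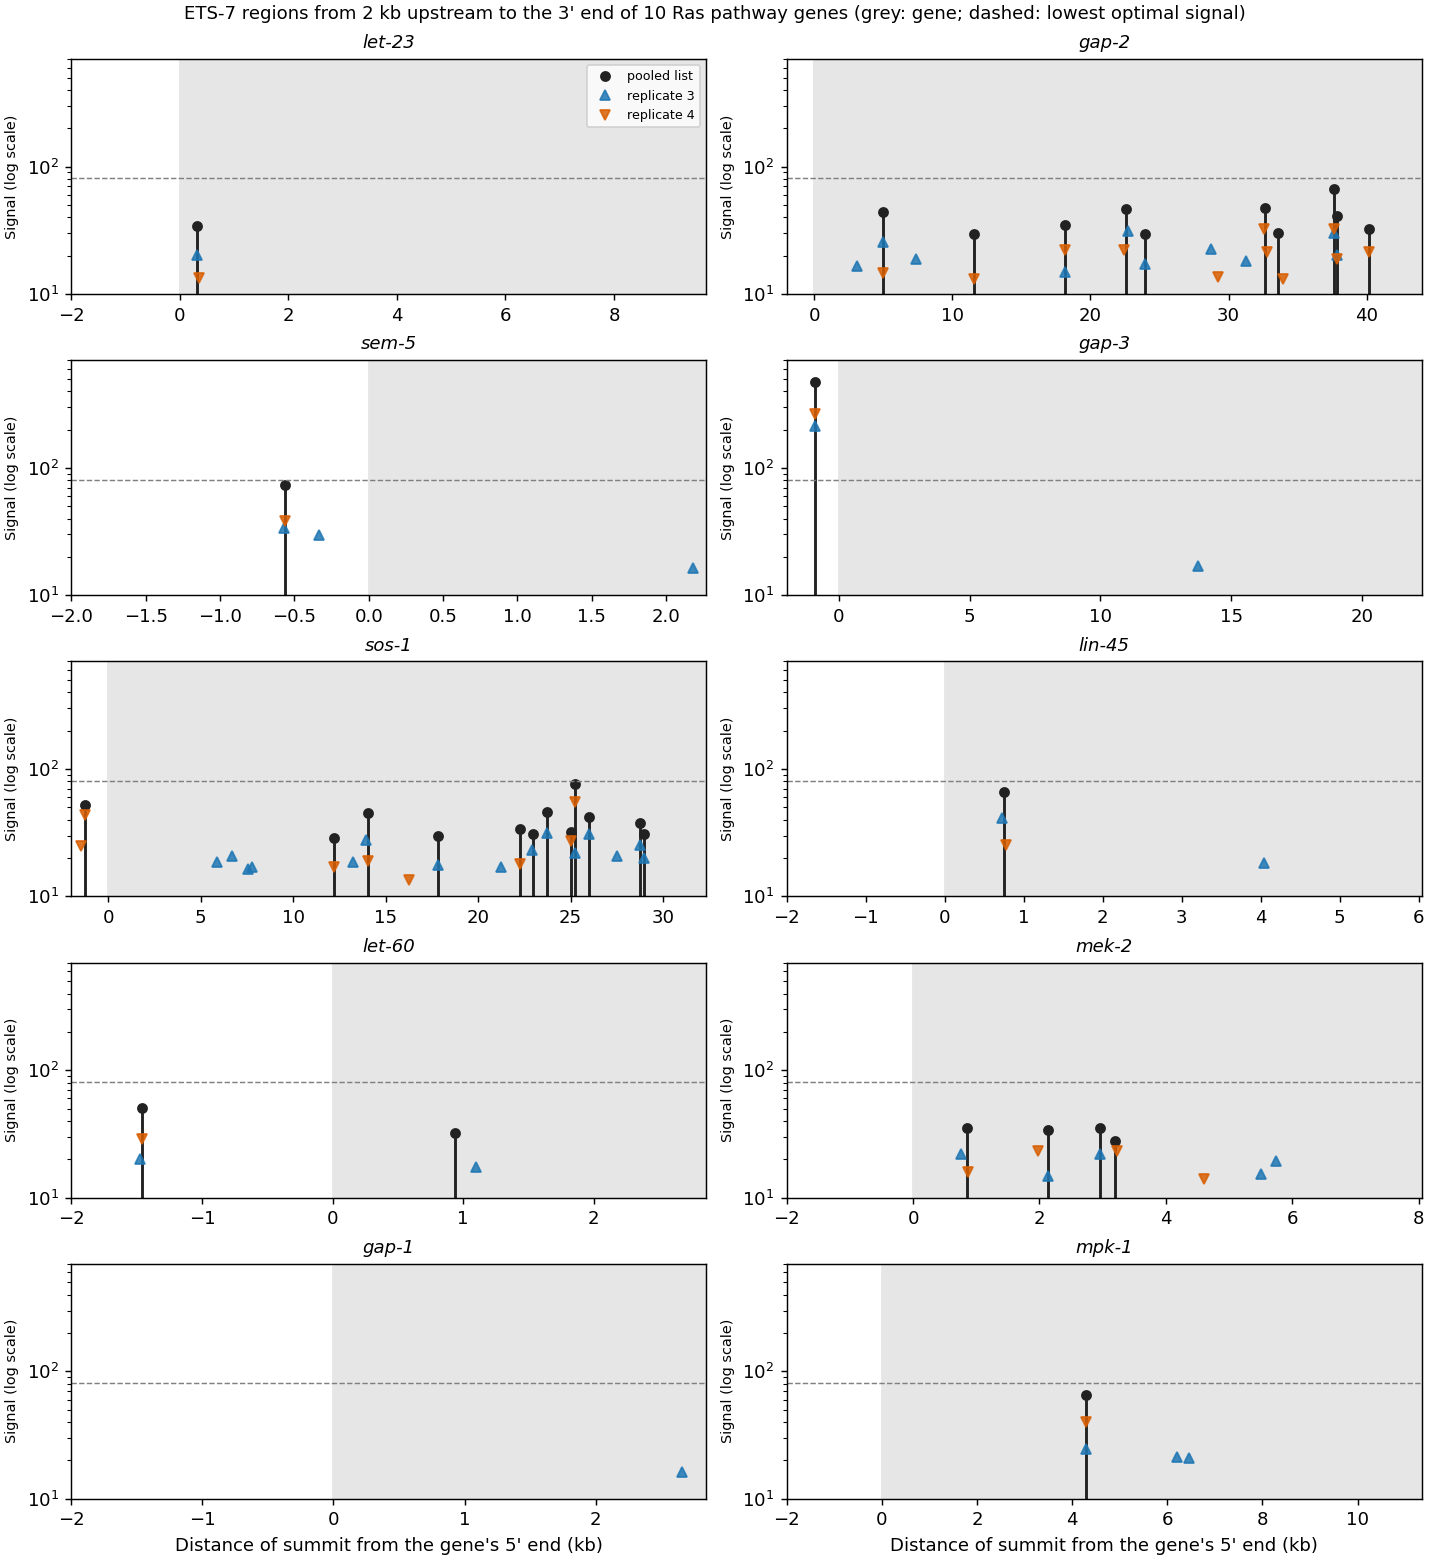
Signal of each region (log axis) against the distance of its summit from the gene's 5' end in kb, one panel per gene, for the pooled list (black points and lines), replicate 3 (blue) and replicate 4 (orange). The gene body is grey and the dashed line marks the lowest signal of the optimal list, which is passed at *gap-3* alone among the 10 genes.

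The sequence ACCGGAAG, an extended ETS-class site searched on both strands, is shown for *sos-1* because the gene held more copies than any other member. The window of *sos-1* held 4 copies, 1 per 8.59 kb, against 1 per 49.0 kb over the genome, which has 2048 copies. All 4 lay in the 13.6 kb intron, on the strand opposite to the gene. Of the 4, 3 lay within 100 bp of a pooled summit, beside 390 of 2048 copies over the genome, or 19.0%. The intron held 5.88 pooled regions per 10 kb, so the share over the genome is not a matched background for it. The second copy listed lay 37.5 bp from the summit of the strongest region. The first lay 85.5 bp from a summit of signal 42.0 and the third 64.5 bp from a summit of signal 32.3. The fourth lay 1461.5 bp from the nearest pooled summit. The copies are printed with 30 bp to each side, from the forward strand of WBcel235, with the 8 letters in capitals.
sos-1 copy 1, V:4523356-4523423: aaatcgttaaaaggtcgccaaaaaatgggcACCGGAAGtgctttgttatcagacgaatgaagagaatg
sos-1 copy 2, V:4523978-4524045: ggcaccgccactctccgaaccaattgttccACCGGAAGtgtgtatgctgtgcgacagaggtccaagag
sos-1 copy 3, V:4524320-4524387: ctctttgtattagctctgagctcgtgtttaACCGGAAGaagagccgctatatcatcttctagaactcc
sos-1 copy 4, V:4528461-4528528: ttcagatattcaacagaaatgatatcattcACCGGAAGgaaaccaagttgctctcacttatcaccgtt

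The gene of the switch itself, *let-60*, held 2 pooled regions, one above and one below the median of all pooled regions. The stronger had its summit 1461 bp upstream, at IV:11692309-11692788, with a signal of 19.9 in replicate 3, 28.8 in replicate 4 and 50.4 in the pooled list, and 10.2% of protein-coding genes held a pooled region as strong. It lay inside the noncoding gene *ZK792.10*, in the windows of 3 protein-coding genes, and the nearest 5' end was that of *ZK792.12*, at 1244 bp. The other, in a coding exon 938 bp after the 5' end, had a pooled signal of 32.2 and 17.5 in replicate 3, and overlapped no region of replicate 4. The next region upstream, 2686 bp from *let-60* and thus outside the window, had a pooled signal of 47.0, and its summit was 19 bp away from where *ZK792.12* begins.

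The GTPase-activating protein genes, whose products switch Ras off, differed in how many regions they held. The *gap-1* window of 4.85 kb held no pooled region. Replicate 3 listed 1 region at *gap-1*, X:2194923-2195406, 2661 bp after the 5' end, with a signal of 16.2 at rank 12597 of 16227, and replicate 4 listed none. The *gap-2* window of 46.0 kb held 10 regions and the *gap-3* window of 24.3 kb held 1.

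The 10 regions at *gap-2* were spread along the gene, with signals from 29.8 to 66.6. Of these, 9 lay in introns and 1 in the 5' UTR of an internal isoform. *gap-2* has 15 annotated transcript starts, and 6 of the 10 summits lay within 500 bp of one, while such positions make up 26.7% of its window. The strongest, X:9509857-9510336, lay 428 bp from a start and 61 bp from the noncoding gene *C07B5.9*, with 30.2 in replicate 3 and 32.6 in replicate 4, and the replicates' summits were 21 bp apart. Among the 130 genes with windows of 25 to 50 kb, 12 held 10 or more regions, *gap-2* and *sos-1* among them. Of the 10 regions at *gap-2*, 5 overlapped a region of both replicates, beside 6764 of all 11626 pooled regions. Of these 5, 2 neighbours were matched to the same region of each replicate. Beyond the window, 4680 bp upstream of *gap-2*, lay an optimal region of signal 137 (rank 163, with 74.3 and 68.5 in the replicates), nearest to the 5' end of *ZK899.6* at 4445 bp. The window of *gap-2* held 2 copies of ACCGGAAG, neither within 100 bp of a pooled summit.

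At *gap-3* the pattern was the opposite, with 1 strong region and no other pooled region along the gene. The region, I:2011304-2011606, had its summit 929 bp before the 5' end, between genes, and no other protein-coding gene held it in its window. It had a signal of 214 in replicate 3 and 264 in replicate 4. The replicates differed 1.23-fold, and their summits were 23 bp apart. The 1.41-fold spread (1 SD of the log2 ratio) of the 6764 pooled regions found in both is mostly that of far weaker regions. In replicates 3 and 4, the 3 nuclear regions just above it in signal had 344 and 333, 233 and 263, and 244 and 235. The 3 just below had 266 and 232, 206 and 212, and 220 and 182. A pooled region at least as strong lay in the windows of 13 protein-coding genes, or 0.065%, *gap-3* included, of which 7 are nuclear and 6 mitochondrial. Along the 22.3 kb of the gene body, replicate 3 listed 1 region, 13727 bp after the 5' end with a signal of 16.8, and replicate 4 listed none. Genes with windows of 15 to 25 kb held 2.46 pooled regions on average, and 177 of the 429 held 1 or none. A copy of ACCGGAAG lay 10.5 bp from the summit, and the other copy in the window lay 3372.5 bp from any. The region was 303 bp wide, and all 43 pooled regions of a width other than 480 bp are in the optimal list.

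Set among the nuclear regions of like signal, *gap-3* ranked 4, after the regions nearest to the 5' ends of *K12H4.5* (675), *M01F1.9* (498) and *F55C5.17* (477). The next 3 were nearest to *nas-30* (464), *cutl-18* (420) and *sre-23* (405). These 7 regions were from 279 to 355 bp wide. In 3 of the 6 others a noncoding gene lay within 67 bp of the summit or held it: the snoRNA gene *C51F7.4*, *T03F7.14* and the snoRNA gene *ZK265.10*. The nearest to the *gap-3* summit was *Y20F4.11*, at 7978 bp. Of the 7, only the *gap-3* region held ACCGGAAG within 100 bp of the summit, which 3.31% of all pooled and 6.72% of all optimal regions did. The shorter CCGGAA, part of that sequence, lay there in the *gap-3* and *M01F1.9* regions. All 31-base words of the *gap-3* region occurred once in the genome, as did those of the *K12H4.5*, *F55C5.17*, *cutl-18* and *sre-23* regions. The share was 94.3% in the *M01F1.9* region and 31.3% in the *nas-30* region.

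Of the kinase genes downstream of Ras, *lin-45* and *mpk-1* held a region well above the median pooled signal of 34.9, and *mek-2* held several near it or below. *lin-45*, the worm Raf, had 1 pooled region at IV:6747584-6748063, in the 5' UTR of an isoform and 44 bp from one of its 6 transcript starts. Its signal was 41.4 in replicate 3, 25.3 in replicate 4 and 65.4 in the pooled list. Among the strongest regions of the 9 genes with one, those of *lin-45* and *let-23* were higher in replicate 3 and the other 7 in replicate 4. Replicate 3 also listed a region of signal 18.1 in a coding exon of *lin-45*, which overlapped none of replicate 4.

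*mek-2*, which encodes the MAP kinase kinase, had 4 pooled regions of signals 27.8 to 35.5 in introns. For 3 of these the nearest 5' end was not its own but that of *col-48*, a cuticle collagen gene that lies within *mek-2* on the other strand, at 196 to 633 bp. The strongest, at I:3010248-3010727, had its summit 5 bp from the noncoding gene *Y54E10BL.8*. It was matched to signals of 22.0 in replicate 3 and 23.3 in replicate 4, at summits 259 bp apart. The neighbouring region I:3010011-3010490 was matched to the same regions of both replicates. The remaining region, 849 bp after the 5' end of *mek-2*, had 21.8 in replicate 3 and 16.0 in replicate 4.

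The MAP kinase gene *mpk-1*, the worm ERK, had 1 pooled region far inside the gene. The summit lay in an intron, 4178 bp from the nearest of its 3 transcript starts. The signal was 24.5 in replicate 3, 40.1 in replicate 4 and 64.8 in the pooled list, and the replicates' summits were 1 bp apart. Replicate 3 listed 2 further regions, of 21.1 and 21.0, and replicate 4 neither. 

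The sequence at the *mpk-1* summit is shown because the replicates placed it within 1 bp and because, like that of *sem-5*, it held no GGAA within 50 bp on either strand. It is given from the forward strand of WBcel235, III:4223771-4223871, and the gene lies on the other strand. At *gap-2* the strongest summit, X:9510047-9510147, is given for comparison: its only match, TTCC on this strand, is in capitals.
mpk-1 summit: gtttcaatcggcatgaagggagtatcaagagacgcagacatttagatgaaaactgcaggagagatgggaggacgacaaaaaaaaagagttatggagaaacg
gap-2 summit: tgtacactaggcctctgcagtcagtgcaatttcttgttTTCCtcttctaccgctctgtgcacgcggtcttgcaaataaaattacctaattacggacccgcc

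Ordered by the strongest pooled region, the members ran from *gap-3* (474) through *sos-1* (76.6), *sem-5* (73.3), *gap-2* (66.6), *lin-45* (65.4), *mpk-1* (64.8), *let-60* (50.4) and *mek-2* (35.5) to *let-23* (34.4), with no pooled region at *gap-1*. The 5 members from *sos-1* to *mpk-1* spanned 1.18-fold, less than the 1.51-fold spread between replicates at signals of 60 to 80. Their order is taken as not resolved. The steps from *mpk-1* to *let-60*, 1.29-fold, and from *let-60* to *mek-2*, 1.42-fold, leave that range of signal. Over all pooled regions found in both replicates the spread was 1.41-fold. Both spreads are of the ratio between single replicates, so neither measures the error of a step between pooled signals. The replicates ordered these genes differently. After *gap-3*, the highest region was at *lin-45* in replicate 3 and at *sos-1* in replicate 4.

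**Figure D4:**
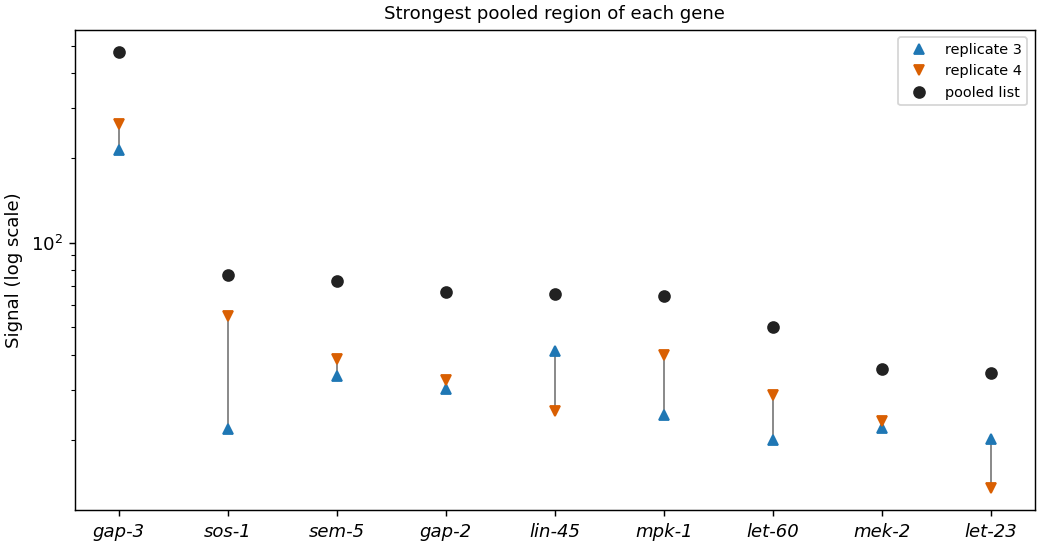
Signal (log axis) of the strongest pooled region at each of the 9 genes that held one, in the pooled list (black), replicate 3 (blue) and replicate 4 (orange), with a line between the replicates. In both replicates *gap-3* lies at 214 or higher and all other genes at 55.0 or lower, and the widest gap between replicates is at *sos-1*.

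The overlap and the signals of the replicates at the 10 genes are given beside those of the whole lists. Of the 33 pooled regions, 18 overlapped a region of both replicates, 8 one of replicate 3 alone and 7 one of replicate 4 alone, so that 45.5% lacked a match in 1 replicate, against 41.8% of all 11626 pooled regions lacking a match in at least 1. Of the 44 regions of replicate 3 at these genes, 17 overlapped one of replicate 4, or 38.6%, against 46.2% over that list. Of the 29 regions of replicate 4, 17 overlapped one of replicate 3, or 58.6%, against 47.6%. Over the 18 regions, the median log2 ratio of replicate 3 to replicate 4 was -0.11 with an SD of 0.65, against 0.13 with a narrower SD of 0.49 over the 6764 pooled regions found in both. The signal was higher in replicate 3 at 6 regions and in replicate 4 at 12. Some neighbouring pooled regions share their replicate regions, so the 18 are not independent.

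**Figure D5:**
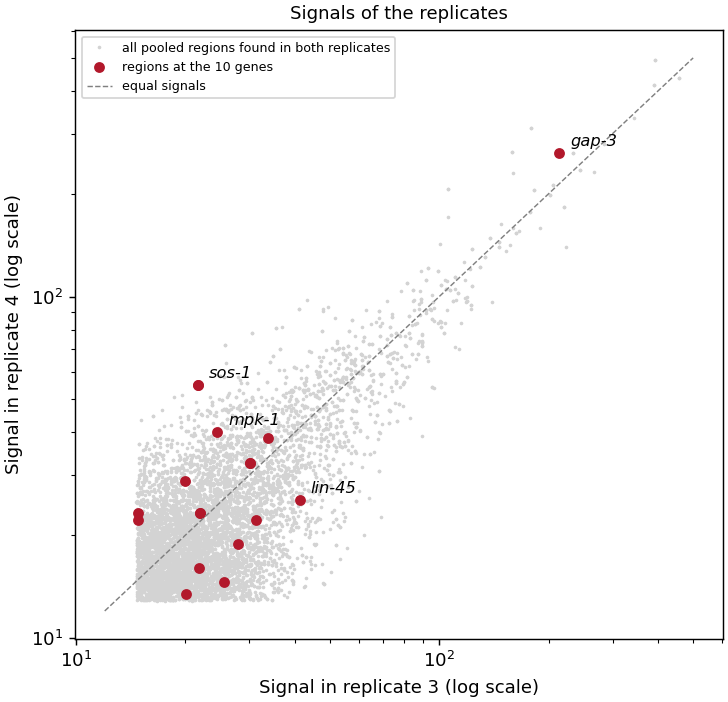
Signal in replicate 4 against signal in replicate 3, both on log axes, for all 6764 pooled regions found in both replicates (grey) and the 18 at the 10 genes (red), with equal signals as a dashed line. The *gap-3* region lies near the line at 214 and 264, and the strongest *sos-1* region lies above it at 21.7 and 55.0.

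What the regions share beyond the choice of genes was limited. No summit of the 33 lay within 500 bp of a gene for rRNA, tRNA, miRNA, snRNA or snoRNA, beside 5.87% of all pooled regions. Of the 33, 26 summits lay in introns, 4 upstream, 2 in 5' UTRs and 1 in a coding exon. The share in introns was thus 78.8%, against 67.3% at genes with windows over 15 kb and 28.4% at all protein-coding genes, and the share upstream was 12.1%, against 12.6% and 48.0%. The closest protein-coding 5' end was the member's own for 21 and another gene's for 12. It was thus the member's own for 63.6%, against 77.3% at genes with windows over 15 kb. When regions are placed at all protein-coding genes in the same way, the share was 69.5%. In 30 of 33 regions, or 90.9%, all 31-base words occurred once in the genome, against 76.4% of all pooled regions. The GC content within 100 bp of the summits ran from 27.4% to 65.7% with a median of 42.3%, against a median of 41.3% over all pooled regions. The hexamer CCGGAA, on either strand, lay within 100 bp of 5 summits, or 15.2%, against 14.1% of all pooled regions and 15.6% of the optimal list. It was at *gap-3* and at 4 regions of *sos-1*, and at none of the other genes. The longer ACCGGAAG, which contains the hexamer, lay at 4 summits, or 12.1%, against 3.31% and 6.72%, and 3 of these 4 belong to the *sos-1* intron. The bare core GGAA lay within 100 bp of 29 of the 33 summits, beside 87.6% of all pooled regions.

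A further 40 genes of the pathway were counted in the same way. Of these, 33 held a pooled region, beside 40.0% of all protein-coding genes, and 4 held an optimal region, beside 3.42%. The 40 were not split by window length. Over all genes with windows under 5 kb, of 5 to 15 kb and over 15 kb, 31.5%, 55.5% and 84.4% held a pooled region. For an optimal region the shares were 2.44%, 4.93% and 11.1%. Some of the 33 genes lacked overlapping regions of both replicates. The windows of the 40 genes held 1.85 pooled regions per 10 kb, against 1.20 over all genes. By role, an optimal region was found at 1 of 4 ligand and receptor genes, 2 of 15 genes for adaptors, scaffolds and phosphatases, 1 of 5 inhibitor genes, 0 of 8 genes for other small GTPases and exchange factors, and 0 of 8 genes for nuclear effectors. In the same order of roles, a pooled region was found at 2 of 4, 13 of 15, 4 of 5, 6 of 8 and 8 of 8 genes, beside 40.0% of all genes. Some of the 8 nuclear effector genes lacked overlapping regions of both replicates.

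The highest of the further genes was *egl-17*, which encodes a fibroblast growth factor, with an optimal region at X:489701-490180 of pooled signal 185 and signals of 100.3 and 84.6 in replicates 3 and 4. Its summit lay in an intron, 2 bp from an annotated tRNA gene. *ftt-2*, a gene for a 14-3-3 protein, had an optimal region 525 bp upstream with signals of 62.3 and 50.6, inside the noncoding gene *F52D10.7*. At *rom-1*, which encodes a rhomboid protein, the region had signals of 43.1 and 57.7. Its summit was 1715 bp upstream of *rom-1* but only 8 bp from the 5' end of *F26F4.8*. *sli-1*, the gene of the worm Cbl, an inhibitor of LET-23 signalling, had signals of 40.9 and 44.9 at a region 1768 bp upstream. Below the optimal list, *rap-2* held a region of pooled signal 79.4 nearest to the 5' end of *C25D7.9*, and *eor-2* one of 76.4 at 196 bp upstream of its own 5' end. None of these 6 regions held CCGGAA within 100 bp. *lin-1*, the ETS-domain gene downstream of MPK-1, and *lin-3*, the gene of the LET-23 ligand, were named after their values were seen. At *lin-1* the strongest region, in an intron, had a pooled signal of 53.7, with 22.1 in replicate 3 and 29.0 in replicate 4. At *lin-3* it was weak, with a pooled signal of 29.1, 23.4 in replicate 3 and no match in replicate 4, but held ACCGGAAG. Its summit lay 966 bp upstream of *lin-3*, and the 5' end of *F36H1.12* was closer, at 360 bp.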

How the data were processed

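The authors deposited lists of regions in narrowPeak format. Per the deposited descriptions of the files, they were called per replicate and on both replicates pooled, from alignments of ChIP and control libraries, to serve as input to an irreproducible discovery rate (IDR) procedure that gave the optimal list. The signal per region is used as deposited by the authors, with its scaling, aligner and peak caller not given in the sources used here. The ce11 lists were used. The ce10 lists were not used, since the annotation is on WBcel235, the assembly of ce11, and all regions lie within its chromosome lengths.

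Windows came from the Ensembl 115 annotation of protein-coding genes. A pooled region took, from each replicate, the overlapping region (1 bp or more) of highest signal. Distances to transcript starts and places in genes used all annotated transcripts. Sequences came from the RefSeq genome of the same assembly, and motifs were searched on both strands within 100 bp of summits. For the printed summit sequences, and the share over all pooled regions given with them, GGAA was searched within 50 bp instead. Positions are 1-based. No test was made: there is 1 group, and the 10 genes and the list of 40 further genes (41 names, of which 40 matched a symbol) were chosen with earlier results of these data known. Further genes are named where they held an optimal region or were among the 6 of highest pooled signal, and neighbours where nearer to a region than the member. The main counts stand beside the same count over all protein-coding genes or pooled regions. Places and nearest 5' ends over all genes were counted per pair of region and gene window. Calculations were checked on simulated regions and ran in Python 3.11.15 with matplotlib 3.10.9, pandas 2.3.3 and NumPy 2.4.6. The control libraries and the signal tracks were not used here.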

Additional observations from a re-analysis of the deposited data

How the results depend on the processing

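Of 34 alternative settings over these counts and values, 26 stayed within the tolerance, which was 1.5 times for a count and, for the log2 ratio and the rank of the *gap-3* region, 1 SD (over the member regions for the ratio, between the 2 replicates' ranks for the rank). Only regions whose nearest protein-coding 5' end was the member's own numbered 21 pooled regions, against 33, at the same number of genes, 9. With 5000 bp upstream, 2 members held 2 optimal regions in place of 1, the second at *gap-2*. With 1 replicate left out and as many of the highest regions taken from the other, the members with an optimal region numbered from 1 to 2 and their optimal regions from 1 to 3, the higher numbers being without replicate 3 through *sos-1*. Members with a pooled region numbered 8 to 9 and their pooled regions 23 to 37. The rank of the *gap-3* region was 8 to 12 in these settings, against 9, and 4 among nuclear regions only. Within 50 bp of the summit, 3 regions held CCGGAA, against 5. The causes of these shifts were not tested, beyond what the settings themselves change. No paired analysis was possible because the series has 1 group. The unknown depth limits all absences: a gene with no listed region may hold signal below the lowest pooled value of 27.5.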
